A study of Mus musculus with 12 samples.

Results

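The genes followed here, for neuropeptide precursors, granins and prohormone convertases, were measured in the dorsal root ganglia of adult mice in which the transcription factor gene Prdm12 had been deleted. They were chosen by name, as Tac1, Adcyap1, Cartpt, Nmb, Scg2, Vgf, Chga, Chgb, Pcsk1 and Pcsk2, and make up 10 of the 55416 genes in each count table. Dorsal root ganglia hold the cell bodies of the sensory neurons that run from the body to the spinal cord, and Prdm12 encodes a zinc finger protein of the PRDM family that pain-sensing neurons need in order to form. Poly(A) RNA was sequenced in 12 libraries, all labelled adult and C57Bl6, to find genes whose expression depends on Prdm12 after development.

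The 6 libraries of the induced knockout (iKO) had the genotype Rosa26Cre ERT2; Fl/Fl, with both Prdm12 alleles floxed, and came from animals injected with tamoxifen a month earlier; iKO 1 to 3 were female and iKO 4 to 6 male. The 6 controls were of several kinds. Control 1 (Rosa26Cre ERT2; Fl/+, female), control 2 (+/+; Fl/+, female), control 3 (+/+; Fl/+, male) and control 4 (Rosa26Cre ERT2; +/+, male) had received tamoxifen. Controls 5 and 6 were males with the iKO genotype, Rosa26Cre ERT2; Fl/Fl, injected with corn oil. Rosa26 is active in nearly all cell types, so deletion can occur in the glia, vessels and immune cells of the ganglion as well as in its neurons. Whether each library comes from 1 animal or a pool is not stated.

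Neuropeptides are made as larger precursors that travel from the Golgi into dense-core vesicles, also called granules. Granins are acidic proteins that aggregate there and help to form and load the granule, and several are themselves cut into peptides. Prohormone convertases cut the precursors at pairs of basic residues, and many of the resulting peptides are then trimmed and amidated at a terminal glycine. In sensory neurons the products are released in the spinal cord and, for some peptides, in the skin, where substance P and PACAP act on neurons, vessels and immune cells.

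Upstream sequence is shown for the members that carry the complete cAMP response element, TGACGTCA, the palindrome to which CREB-family factors bind and a known feature of several granule genes. RefSeq's table of gene starts on GRCm38.p6 held 9 of the 10 genes, and the 250 bases before the annotated start were searched. The complete element was present in 4 of the 9, Cartpt, Scg2, Chgb and Pcsk1, against 508 of the 32851 windows in the table, or 1.55%. The windows are Cartpt chr13:99900684-99900933 on the minus strand, Scg2 chr1:79440027-79440276 on the minus strand, Chgb chr2:132781392-132781641 on the plus strand and Pcsk1 chr13:75089607-75089856 on the plus strand. Each is written 5′ to 3′ along the gene's own strand and ends just before the start, with TGACGTCA, and any further TGACG or its reverse complement CGTCA, in capitals.
Cartpt: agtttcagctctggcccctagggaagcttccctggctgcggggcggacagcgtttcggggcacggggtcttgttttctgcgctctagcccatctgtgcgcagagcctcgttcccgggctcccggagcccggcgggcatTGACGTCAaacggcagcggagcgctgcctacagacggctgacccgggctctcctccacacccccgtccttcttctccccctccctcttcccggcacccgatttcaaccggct
Scg2: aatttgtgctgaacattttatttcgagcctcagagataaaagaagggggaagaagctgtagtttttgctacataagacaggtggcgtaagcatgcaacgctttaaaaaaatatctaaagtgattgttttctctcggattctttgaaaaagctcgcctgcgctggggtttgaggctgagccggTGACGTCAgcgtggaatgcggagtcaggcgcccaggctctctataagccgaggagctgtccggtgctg
Chgb: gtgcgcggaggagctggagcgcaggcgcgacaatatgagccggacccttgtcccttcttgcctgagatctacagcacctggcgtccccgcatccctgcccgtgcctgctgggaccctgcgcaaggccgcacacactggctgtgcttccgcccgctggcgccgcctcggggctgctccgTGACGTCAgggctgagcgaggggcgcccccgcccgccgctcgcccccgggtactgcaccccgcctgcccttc
Pcsk1: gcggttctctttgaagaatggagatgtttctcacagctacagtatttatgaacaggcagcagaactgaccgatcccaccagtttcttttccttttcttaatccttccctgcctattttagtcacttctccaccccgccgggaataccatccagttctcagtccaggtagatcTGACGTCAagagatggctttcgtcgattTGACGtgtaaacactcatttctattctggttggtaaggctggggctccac
The first base of the element lay 112 bases before the start in Cartpt, 68 in Scg2, 72 in Chgb and 78 in Pcsk1. The 5-letter core TGACG, searched on both strands and contained in the complete element, was found in 8 of the 9 genes and in 17.8% of all windows; Nmb had none. The letters TATAAA, searched on the gene's own strand only, were found before 1 gene, Adcyap1, in 1 of its 2 windows, and in 7.59% of all windows. These are matches of letters in a 250-base window, and no binding was measured.

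**Figure D1:**
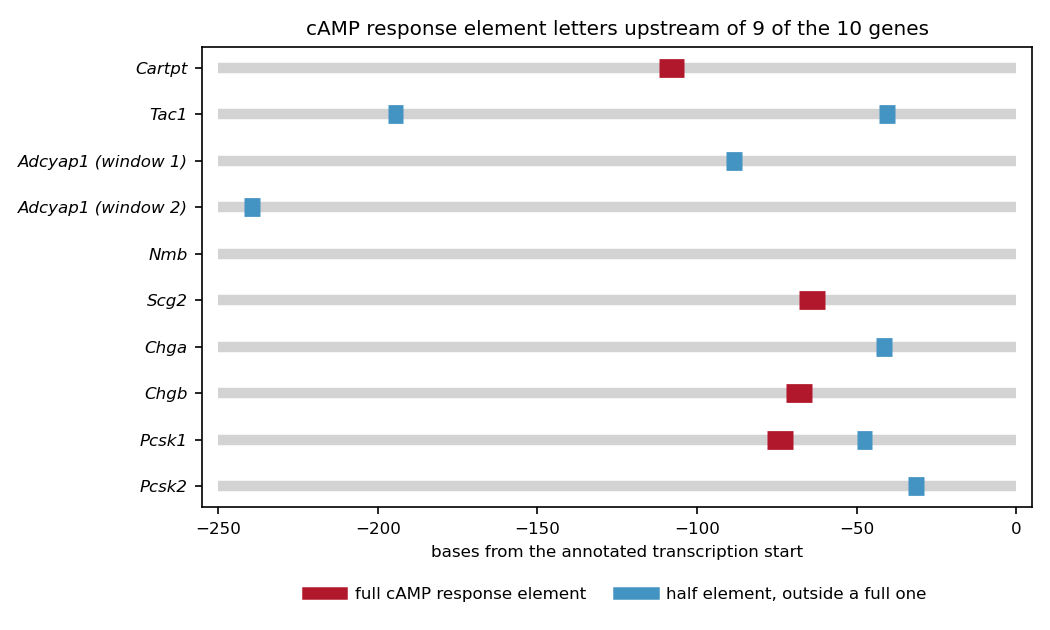
Positions of the complete cAMP response element (red) and of its 5-letter core outside a complete element (blue) in the 250 bases before the annotated start of 9 genes, Adcyap1 with 2 starts; the horizontal axis is the distance from the start in bases. The complete element lies between 112 and 68 bases before the start in Cartpt, Pcsk1, Chgb and Scg2.

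The coding sequences were searched for pairs of basic residues and for glycine followed by such a pair. A match of letters need not be a site where the convertases or the amidating enzyme act, and no cleavage was measured. Stretches that end in a known amidation site are shown for Tac1, Adcyap1 and Nmb, from GENCODE M21 transcripts (GRCm38), 12 codons before the glycine codon, with the glycine codon and the 2 codons of the basic pair in capitals.
Tac1, end of substance P: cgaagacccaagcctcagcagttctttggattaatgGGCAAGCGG
Tac1, end of neurokinin A: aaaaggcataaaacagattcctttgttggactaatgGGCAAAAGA
Adcyap1, end of the short form of PACAP: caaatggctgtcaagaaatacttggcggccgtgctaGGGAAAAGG
Adcyap1, end of the long form of PACAP: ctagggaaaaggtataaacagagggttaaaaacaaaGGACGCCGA
Nmb, end of neuromedin B: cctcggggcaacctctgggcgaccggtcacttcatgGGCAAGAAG
In the longest annotated coding sequence, pairs of basic residues numbered 7 in the 130 residues of Tac1, 8 in the 175 of Adcyap1, 5 in the 129 of Cartpt and 3 in the 131 of Nmb. Among the granins they numbered 23 in the 677 residues of Chgb, 16 in the 617 of Vgf, 9 in the 617 of Scg2 and 9 in the 463 of Chga. Glutamate and aspartate made up 19.1% to 23.2% of the residues of the 4 granins and 6.1% of those of Nmb, the least acidic of the 10.

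Total counts ran from 13943784 to 20377766 per library, and every member had at least 170 counts in every library. Values are CPM, counts divided by the library size after TMM scaling, a correction for differences in library make-up. Prdm12 itself had 18.6 to 25.4 CPM in the iKO libraries, against 64.6 to 147 CPM in the controls, with no overlap (log2 fold change -2.33 ± 0.18 SE, adjusted p = 8.59e-05, quasi-likelihood test of edgeR, Benjamini-Hochberg adjusted). The 64.6 CPM was that of control 6, given corn oil, and the other controls had 107 to 147 CPM. Why control 6 was lower was not tested. Exons of Prdm12 share 8.09% of their bases with Gm13425 on the opposite strand, which had 14324 counts over all libraries. Part of the Prdm12 count may therefore depend on how shared reads were assigned. The 14 general sensory neuron markers were all detected and summed to 13700 to 20000 CPM in iKO libraries and 15200 to 20800 CPM in controls. Among the iKO libraries, iKO 1 stood apart with the lowest neuronal sum, 13700 CPM, and the highest sums of macrophage (649 CPM), endothelial (346 CPM) and fibroblast markers (3930 CPM) of all 12. Its sums of myelinating Schwann cell (6220 CPM) and satellite glia markers (4320 CPM) were also the highest. Control 6 had the highest sum of skeletal muscle markers, 449 CPM, against at most 100 CPM elsewhere.

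Of the 10 members, Cartpt was the one whose difference passed the threshold between iKO and control ganglia. It rose about 2.01-fold, and 0 members fell at that threshold, an adjusted p under 0.05. Scg2 had the next smallest p and was lower in iKO, by 0.33 on the log2 scale, short of the threshold. The other 8 members had fitted differences between -0.07 and 0.16 on the log2 scale, none past it. Over all 16384 genes tested, 155 passed, or 0.946%, 88 higher and 67 lower. The median log2 fold change was 0.03 over the 10 members and 0 over all genes.

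**Figure D2:**
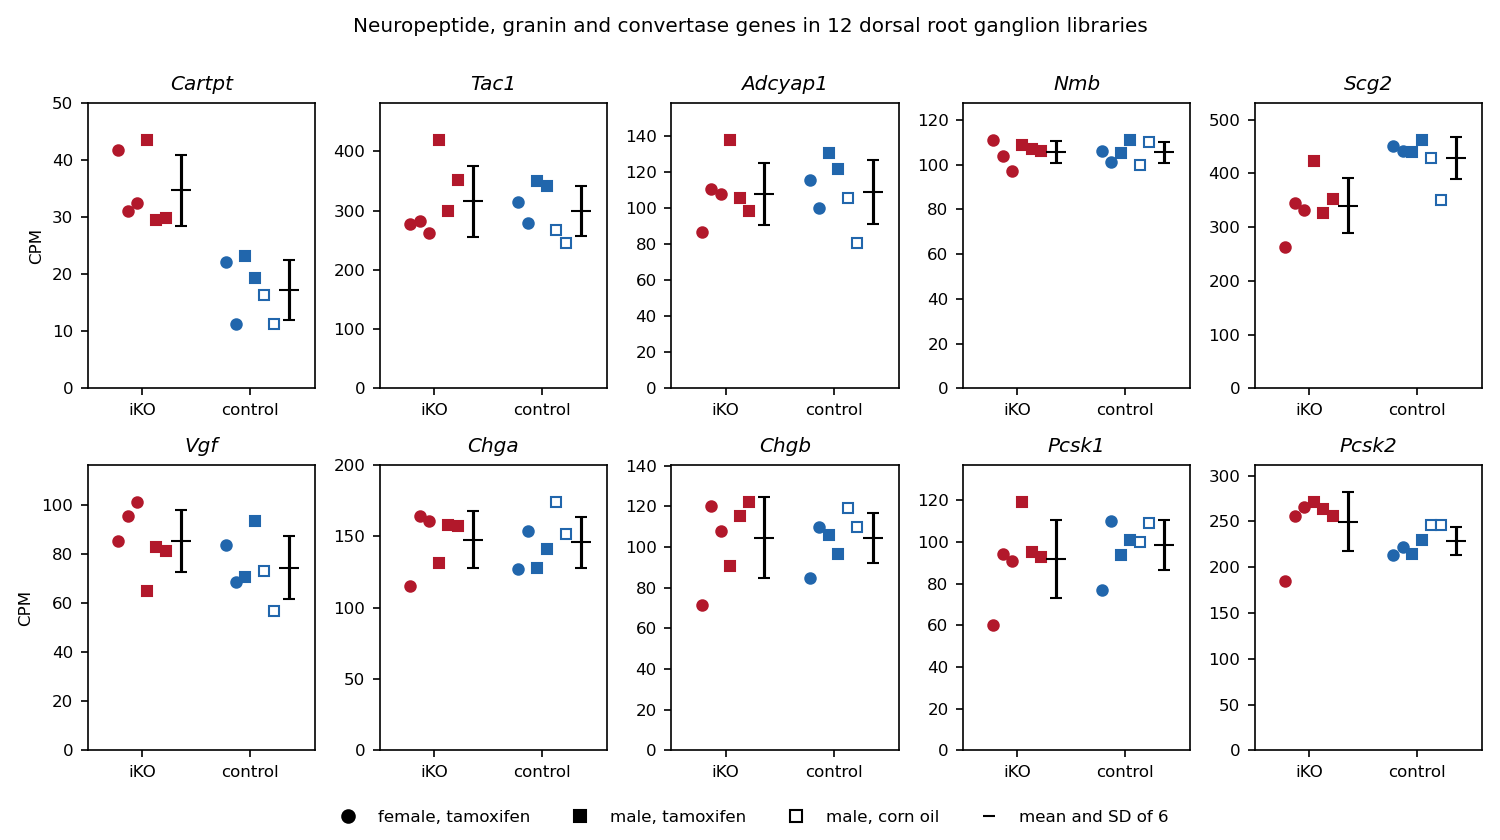
CPM of each of the 10 genes in every library, iKO in red on the left and control in blue on the right of each panel, with the mean and SD of each 6 in black; circles are females, filled squares males given tamoxifen and open squares males given corn oil. The 6 iKO libraries lie at 29.5 CPM or more for Cartpt, above all controls, whose highest was 23.2 CPM; the groups overlap in the other 9 panels.

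Cartpt encodes the precursor of CART peptides, which are released by a minority of sensory neurons and act on feeding, arousal and pain circuits. It had 41.7, 31.1, 32.5, 43.5, 29.5 and 29.8 CPM in iKO 1 to 6, against 22.2, 11.2, 23.2, 19.4, 16.3 and 11.2 CPM in controls 1 to 6. These rest on 468 to 780 counts per iKO library and 170 to 393 per control. Every iKO library was above every control, with iKO 1 and iKO 4 highest and controls 2 and 6 lowest. Groups without overlap were found for 1 of the 10 members and for 253 of all genes tested, or 1.54%. The mean was 34.7 ± 6.25 CPM in iKO and 17.2 ± 5.27 CPM in control ganglia (SD, n = 6 each). The log2 fold change was 1.01 ± 0.20 (SE; 95% confidence interval 0.57 to 1.45; adjusted p = 0.0371, edgeR's quasi-likelihood test). By p, Cartpt ranked 134 among the genes tested, near the end of the 155 called.

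The Cartpt difference kept its direction, with log2 fold changes of 0.86 to 1.17 over the 27 alternatives tried, while the call was lost in 12. Leaving out 1 library at a time gave log2 fold changes of 0.88 to 1.16. The adjusted p was above 0.05 without iKO 2 (0.0642), iKO 3 (0.0705), iKO 4 (0.0945), iKO 5 (0.0692), iKO 6 (0.0661), control 2 (0.0731), control 4 (0.0674) or control 5 (0.0703), and stayed below it without any of the other 4. Of the 10 myelinating Schwann cell markers 0 were called by edgeR and 3 had an unadjusted p under 0.05, against 9.52% of all genes. DESeq2 called 1, against 1.79% of all genes. All 10 had a positive log2 fold change (median 0.25). Their sums were 4320 to 6220 CPM in iKO and 3720 to 4770 CPM in control libraries, iKO 1 being the highest. With the score of these markers as a term the log2 fold change of Cartpt was 1.17, with an adjusted p of 0.0634. In bulk tissue, more cells with a transcript and more transcript per cell cannot be told apart, for Cartpt as for the other members.

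Tac1 encodes the precursor of substance P and neurokinin A, peptides of nociceptors whose receptors are those of the tachykinin family. It had 278, 283, 262, 419, 299 and 352 CPM in iKO 1 to 6, against 314, 279, 350, 341, 268 and 246 CPM in controls 1 to 6. The groups overlapped, with iKO 4 and iKO 6 above every control and the corn-oil controls 5 and 6 the lowest of the controls. The log2 fold change was 0.10 ± 0.11 (95% confidence interval -0.14 to 0.33; adjusted p = 0.818).

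Adcyap1 encodes PACAP, a peptide of the secretin and glucagon family that signals through cAMP and is known to be induced in sensory neurons by nerve injury. Its values were 86.7 to 138 CPM in iKO libraries (median 107) and 80.5 to 131 CPM in controls (median 111). The ranges nearly coincided, and the log2 fold change was -0.002 ± 0.121 (95% confidence interval -0.26 to 0.26; adjusted p = 0.997). Nmb encodes neuromedin B, a bombesin-like peptide linked to itch. It was the steadiest of the 10, with 97.0 to 111 CPM in iKO libraries (median 106) and 99.8 to 111 CPM in controls (median 105). Its coefficient of variation was 4.48% in iKO and 4.41% in control ganglia, and the interval of its log2 fold change, -0.10 to 0.12 (adjusted p = 0.97), was the narrowest of the 10. In the annotation 20.55% of the exon bases of Nmb are shared with Sec11a on the same strand, so part of its count may depend on how shared reads were assigned.

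Scg2 encodes secretogranin II, a granin that is cut to give secretoneurin and other peptides. It had 263, 344, 332, 423, 326 and 353 CPM in iKO 1 to 6, against 450, 441, 439, 462, 429 and 351 CPM in controls 1 to 6. All 6 iKO libraries were below the control median of 440 CPM and 4 were below every control, but control 6, at 351 CPM, was below iKO 4 and iKO 6. The log2 fold change was -0.33 ± 0.10 (95% confidence interval -0.53 to -0.12). In edgeR's test its p of 0.00471 ranked 379 among all genes, and the adjusted p was 0.204.

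The 2 libraries that stand apart lay at the low end of Scg2 in their groups. iKO 1, with the lowest neuronal marker sum, had the lowest Scg2 of all 12, and control 6 the lowest of the controls. Without both, an alternative chosen after the data were seen, the log2 fold change was -0.32, close to that over all 12, and the adjusted p was 0.021. In the same fit Cartpt (log2 fold change 0.86, adjusted p = 0.0358) and Pcsk2 (0.23, adjusted p = 0.0281) also passed, so that 3 of the 10 members were called, where calls over all genes went up as well, to 341 of 16343, or 2.09%. With the Schwann cell score as a term the log2 fold change of Scg2 was -0.18 (adjusted p = 0.589).

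Vgf encodes a granin-like protein induced by nerve growth factor and cut into many peptides. It ranged from 65.0 to 101 CPM in iKO libraries (median 84.0) and from 56.6 to 93.5 CPM in controls (median 71.7). Of the iKO libraries, 5 were above the control median, yet the lowest, iKO 4, was below 5 of the controls. The log2 fold change was 0.16 ± 0.11 (95% confidence interval -0.09 to 0.40; adjusted p = 0.693).

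Chga encodes chromogranin A, a granin that stores calcium and drives granule formation in endocrine cells. Its values were 115 to 164 CPM in iKO libraries (median 158) and 127 to 174 CPM in controls (median 147). Chgb, for chromogranin B, had 71.4 to 122 CPM in iKO libraries (median 111) and 84.5 to 119 CPM in controls (median 108). The groups overlapped almost wholly for both. Chga averaged 148 ± 19.9 CPM in iKO and 146 ± 18.1 CPM in control ganglia, and Chgb 104 ± 19.8 CPM in iKO and 104 ± 12.2 CPM in control ganglia (SD, n = 6 each). The log2 fold changes were 0.03 for Chga (95% confidence interval -0.19 to 0.24; adjusted p = 0.959) and 0.03 for Chgb (-0.24 to 0.29; adjusted p = 0.969). Chromaffin cells of the adrenal gland also make much of both granins. Of the 9 sympathetic and chromaffin cell markers 3 passed the filter on low counts, 0 were called, and they summed to 126 to 163 CPM in iKO and 119 to 172 CPM in control libraries.

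The convertases cut the precursors in maturing granules. Pcsk1, for prohormone convertase 1, had 60.3 to 119 CPM in iKO libraries (median 93.4) and 77.1 to 110 CPM in controls (median 101). Its iKO libraries held both the lowest value (iKO 1) and the highest (iKO 4) of the 12, and the log2 fold change was -0.07 ± 0.12 (95% confidence interval -0.33 to 0.19; adjusted p = 0.883). Pcsk2, for prohormone convertase 2, had 185, 256, 266, 271, 264 and 256 CPM in iKO 1 to 6, against 213, 222, 214, 230, 246 and 246 CPM in controls 1 to 6. All iKO libraries but iKO 1 were above every control, and iKO 1 was below every control. The log2 fold change was 0.15 ± 0.08 (95% confidence interval -0.02 to 0.32; adjusted p = 0.591). Without iKO 1 it was 0.21, with an adjusted p of 0.0394 in the same test, where 2.21% of all genes passed. Exons of Pcsk2 overlap those of 2 antisense genes, Pcsk2os1 over 3.29% and Pcsk2os2 over 1.25% of its exon bases, and the libraries do not record strand.

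**Figure D3:**
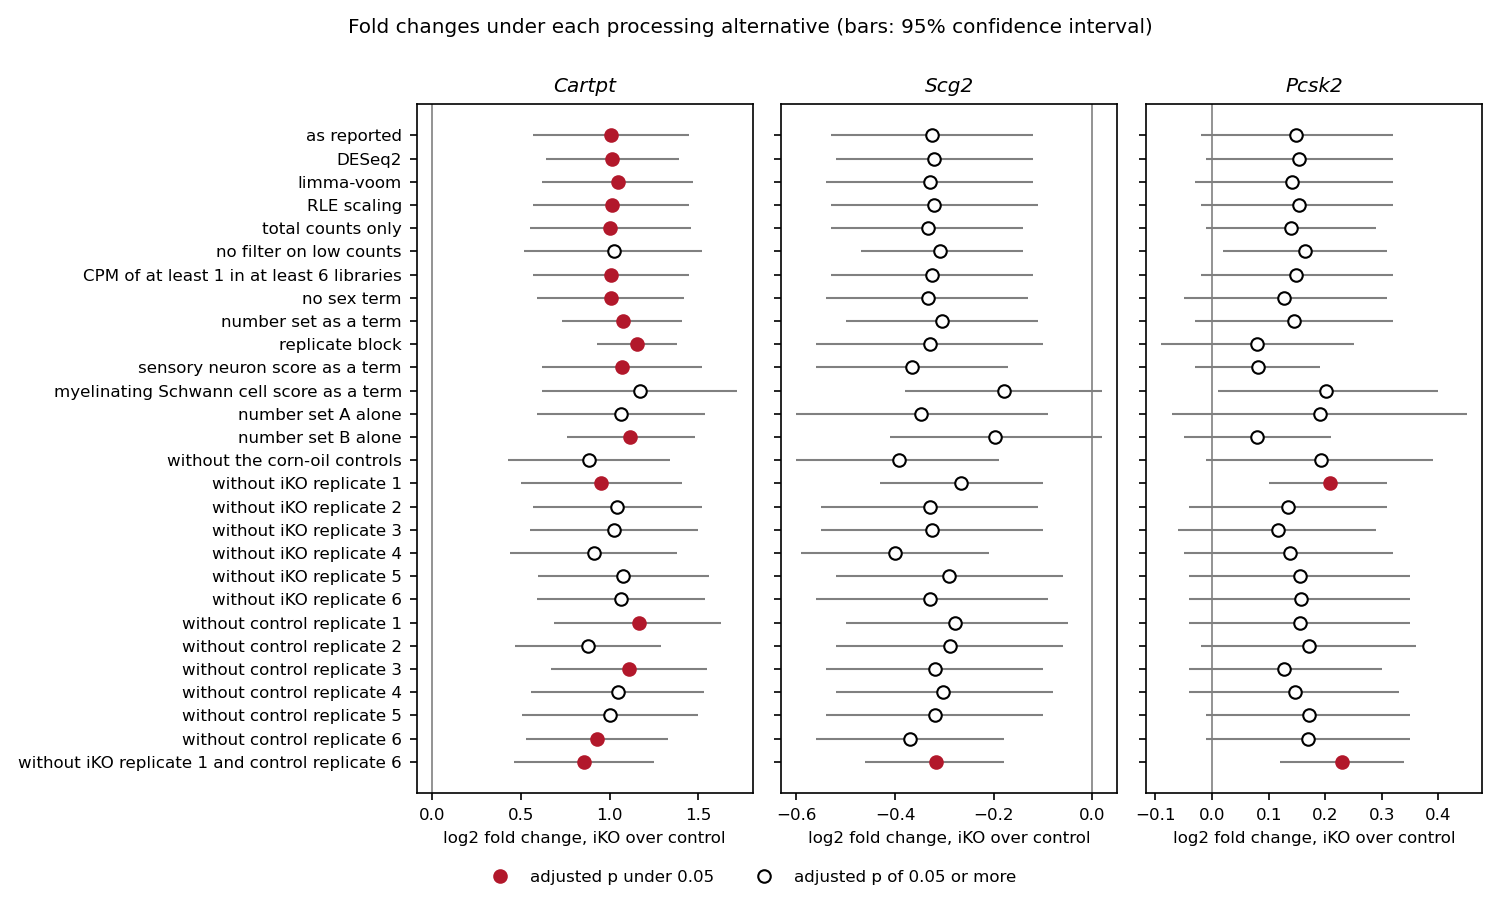
Log2 fold changes in iKO over control of Cartpt, Scg2 and Pcsk2 under each processing alternative, with 95% confidence intervals; filled red points have an adjusted p under 0.05, open points do not, and number sets A and B are replicates 1 to 4 and replicates 5 and 6. Every estimate lies right of 0 for Cartpt and Pcsk2 and left of 0 for Scg2, while the Cartpt call is lost under 12 of the 27 alternatives.

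The controls had received 1 of 2 agents, and iKO was also set against each kind. Against the 4 tamoxifen-injected controls 0 of the 10 members passed, where 1.35% of all genes did, and against the 2 corn-oil controls 0 of the 10 passed, where 0.146% did. At an unadjusted p under 0.05 there were 2 members in each comparison, Cartpt and Scg2 against tamoxifen-injected and Cartpt and Tac1 against corn-oil controls; the shares of all genes at that p were 17.0% and 5.3%. DESeq2 called 2 members against tamoxifen-injected controls (Cartpt and Scg2), with 3.58% of all genes, and 1 against corn-oil controls (Cartpt), with 0.427%, and limma-voom called 0 members in either. Both come from the same fit of 3 groups over all 12 libraries, and they share the iKO libraries. The corn-oil controls are also the only controls numbered 5 and 6, which form a separate run of sample numbers, and the only controls with the iKO genotype. Agent, genotype and number run therefore cannot be told apart among the controls.

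Cartpt was higher in iKO against either kind of control. The log2 fold change was 0.87 (95% confidence interval 0.42 to 1.33; adjusted p = 0.069) against tamoxifen-injected controls and 1.40 (0.74 to 2.05; adjusted p = 0.193) against corn-oil controls, neither past the threshold in edgeR's test. Scg2 was 340 ± 51.3 CPM in iKO (n = 6), against 448 ± 10.7 CPM in the tamoxifen-injected controls (SD, n = 4) and 351 and 429 CPM in the corn-oil controls. Its log2 fold change was -0.40 (-0.61 to -0.19; adjusted p = 0.0633) against the tamoxifen-injected and -0.13 (-0.42 to 0.16) against the corn-oil controls. Against the tamoxifen-injected controls Scg2 passed without iKO 1 (-0.34, adjusted p = 0.0112) or iKO 4 (-0.46, adjusted p = 0.0193), and Pcsk2 passed without iKO 1 (0.26, adjusted p = 0.00267). Over all genes, 8.87% passed without iKO 1 and 2.84% without iKO 4, against 1.35% with all libraries.

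The Tac1 estimate changed sign with the kind of control. Its log2 fold change was -0.03 (-0.22 to 0.15) against the tamoxifen-injected controls, which had 279 to 350 CPM, and 0.44 (0.18 to 0.70; adjusted p = 0.365 in edgeR's test, rank 113 by p) against the corn-oil controls, at 246 and 268 CPM. Adcyap1 and Vgf followed the same order, with log2 fold changes of -0.12 and 0.10 against tamoxifen-injected and 0.31 and 0.32 against corn-oil controls, all with intervals that include 0. Control 6 held the lowest control value of 5 members, Tac1, Adcyap1, Cartpt, Scg2 and Vgf, and was 1 of the 2 corn-oil libraries. It also had the lowest Prdm12 of the controls, at 64.6 CPM.

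**Figure D4:**
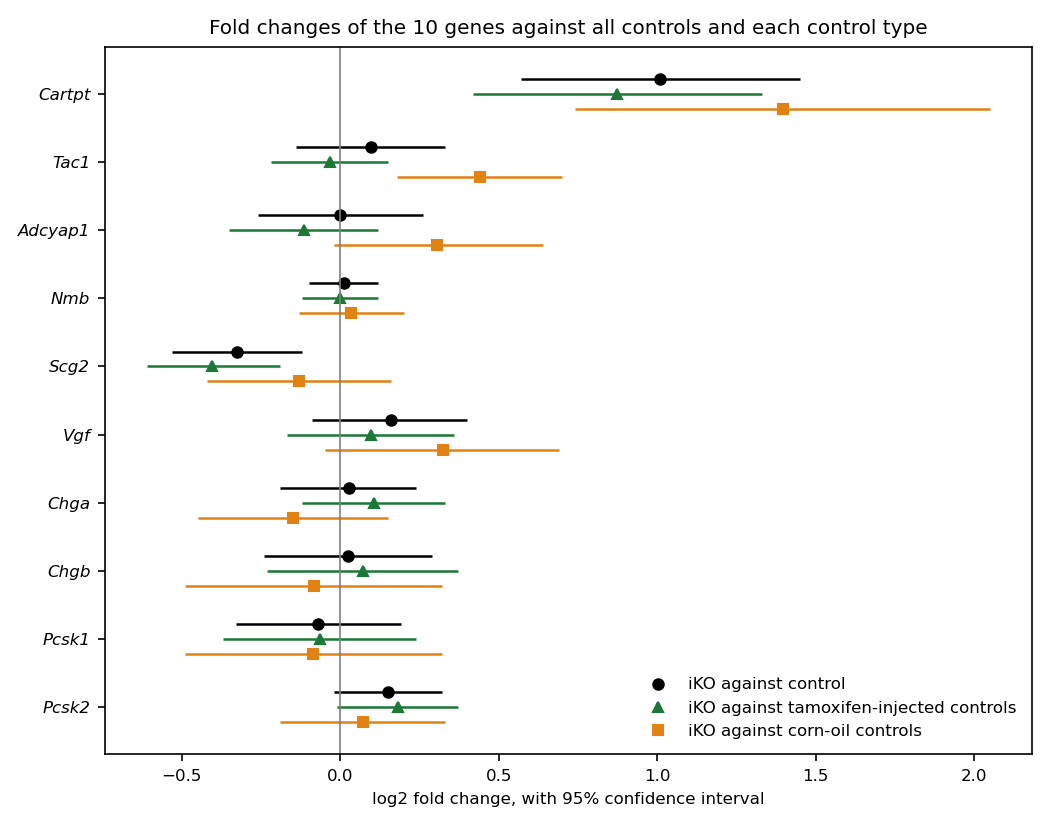
Log2 fold changes of the 10 genes in iKO over all controls (black circles), over the 4 tamoxifen-injected controls (green triangles) and over the 2 corn-oil controls (orange squares), with 95% confidence intervals. Cartpt lies right of 0 in all 3, and the Tac1 estimates run from -0.03 to 0.44.

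Sex made no difference that passed the threshold in any member. Of the 10 members 0 differed between male and female libraries with group in the fit, where 0.0549% of all genes did; DESeq2 and limma-voom also called 0, and 0 had an unadjusted p under 0.05. Tac1 averaged 325 ± 58.5 CPM in males (n = 7) and 283 ± 19.0 CPM in females (SD, n = 5). It had the smallest p of the members by edgeR, 0.0781 (log2 fold change 0.21), followed by Pcsk1 at 0.0856 (0.23). All adjusted p-values of the members were 0.904 or more.

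The iKO effect was not shown to differ between the sexes either. The interaction of sex and group passed in 0 of the 10 members and in 0 of all genes by edgeR (0%), with 589 genes at an unadjusted p under 0.05, in 2 genes by DESeq2 and in 0 by limma-voom. Without the filter on low counts edgeR called 270 genes, 18 higher and 252 lower, a difference whose cause was not tested. Tac1 averaged 357 ± 60.1 CPM in male iKO (n = 3) and 301 ± 52.0 CPM in male control libraries (n = 4). In females it averaged 274 ± 10.4 CPM in iKO (n = 3) and 296 ± 25.1 CPM in control libraries (SD, n = 2). The difference of the log2 fold changes, male less female, was 0.36 for Tac1 (95% confidence interval -0.09 to 0.81) and 0.32 for Scg2 (-0.09 to 0.72), the members with the smallest p.

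Per kilobase of exon, the levels of the members ran from Scg2 down to Pcsk1 and Cartpt. Scg2 had 135 ± 20.4 CPM per kilobase in iKO and 170 ± 15.7 in control ganglia, and Nmb 133 ± 5.97 in iKO and 133 ± 5.86 in control ganglia (SD, n = 6 each). These were the highest levels, and in iKO they did not differ beyond their spread. Tac1 followed at 92.8 ± 17.5 CPM per kilobase in iKO and 88.2 ± 12.3 in control ganglia, then Chga at 53.6 ± 7.24 in iKO and 53.0 ± 6.56 in control ganglia. Chgb had 38.1 ± 7.22 CPM per kilobase in iKO and 38.1 ± 4.45 in control ganglia. Pcsk2, Adcyap1, Vgf and Cartpt lay between 27.2 and 31.6 CPM per kilobase in iKO ganglia, a spread smaller than the SD of Cartpt, 4.90. In control ganglia Cartpt was the lowest of the 10, at 13.5 ± 4.13 CPM per kilobase, beside Pcsk1 at 17.6 ± 2.16, while in iKO ganglia Pcsk1 was the lowest, at 16.4 ± 3.32. Exon lengths come from an annotation of an older build than that of the counts, so these levels are approximate.

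The members' values moved together in some pairs. Of the 45 pairs, 25 had a positive Pearson correlation of log2 CPM over the 12 libraries, and 1 pair passed 0.05 after Benjamini-Hochberg adjustment over the 45. That pair was Chga and Chgb, with r = 0.89 (permutation p = 0.00023, adjusted p = 0.0103) and Spearman's rho = 0.839 (permutation p = 0.00131, adjusted p = 0.0589). The correlation was 0.967 within the 6 iKO and 0.786 within the 6 control libraries, and 0.864 over the 8 libraries numbered 1 to 4, the run of sample numbers without corn oil. The other run held 4 libraries, too few for a value.

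The libraries at the low end were iKO 1, with 115 CPM of Chga and 71.4 CPM of Chgb, and control 1, with 127 and 84.5 CPM. Without those 2, the farthest from the median of Chga, r was 0.772. Without iKO 1 alone r was 0.831 (permutation p = 0.00195, adjusted p = 0.0877), and 0 of the 45 pairs passed. iKO 1 and control 1 also had the lowest neuronal marker sums of their groups, 13700 and 15200 CPM, and the part of neuronal content in this correlation was not tested.

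With each gene's mean taken out within iKO and within control, 6 of the 45 pairs passed. Besides Chga and Chgb (r = 0.893) they were Adcyap1 and Scg2 (0.859), Pcsk1 and Pcsk2 (0.858), Tac1 and Adcyap1 (0.76), Tac1 and Scg2 (0.758), and Chga and Pcsk2 (0.741). Uncentred, these added pairs had adjusted permutation p-values of 0.118 to 0.457. Without the 2 libraries farthest from the first gene's median, uncentred r fell from 0.685 to 0.126 for Pcsk1 and Pcsk2. For Chga and Pcsk2 it fell from 0.703 to 0.352. It was 0.704 for Adcyap1 and Scg2, 0.813 for Tac1 and Adcyap1, and 0.506 for Tac1 and Scg2. iKO 4 held the highest iKO value of 6 members, Tac1, Adcyap1, Cartpt, Scg2, Pcsk1 and Pcsk2, and the lowest of Vgf. iKO 1 held the lowest iKO value of 6, Adcyap1, Scg2, Chga, Chgb, Pcsk1 and Pcsk2.

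**Figure D5:**
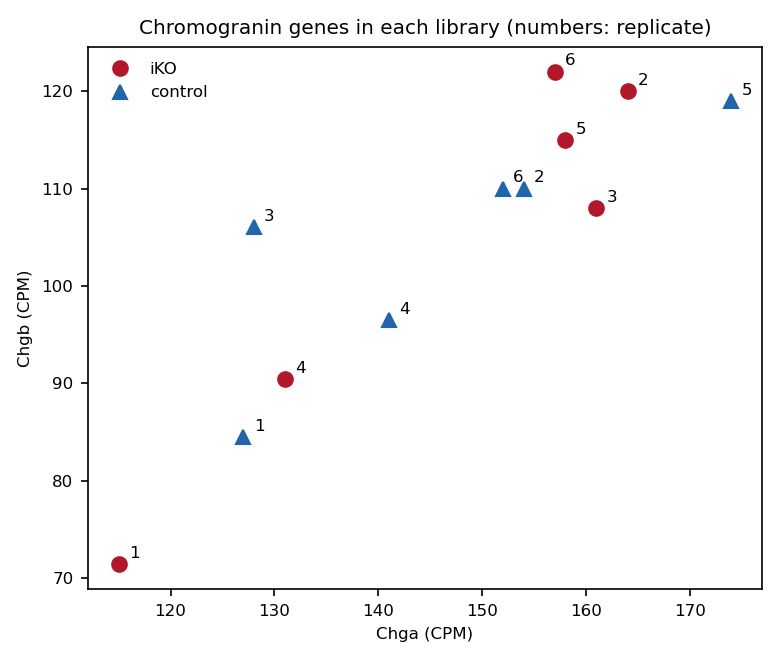
Chgb against Chga in CPM for each of the 12 libraries, numbered by replicate, with iKO as red circles and control as blue triangles. The libraries run from iKO 1, at 115 CPM of Chga and 71.4 CPM of Chgb, to the group above 150 CPM of Chga, where iKO and control libraries mix.

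Of 17 genes of prohormone processing, which act on these products, all were tested and 0 were called in either direction, with a median log2 fold change of 0.05. At an unadjusted p under 0.05 there were 4, against 9.52% of all genes, and DESeq2 called 3, against 1.79% of all genes, and limma-voom 0. Pam, the enzyme that amidates peptides at the glycine shown above for Tac1, Adcyap1 and Nmb, had the smallest p, at 285 ± 15.4 CPM in iKO and 244 ± 11.4 CPM in control ganglia (SD, n = 6 each; log2 fold change 0.23 ± 0.06, adjusted p = 0.0964). Pcsk1n, for the Pcsk1 inhibitor proSAAS, was chosen after its values were seen and had 232 ± 20.3 CPM in iKO and 175 ± 33.1 CPM in control ganglia (log2 fold change 0.40, adjusted p = 0.157). Leaving out iKO 1 brought Pam to an adjusted p of 0.0159 (log2 fold change 0.24), and leaving out control 5 brought Pcsk1n to 0.0105 (0.50). Over all genes 2.21% passed without iKO 1 and 1.14% without control 5, against 0.946% with all libraries. Scg5, for the chaperone of Pcsk2, chosen in the same way, had 87.2 ± 8.21 CPM in iKO and 85.2 ± 6.15 CPM in control ganglia.

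Of 27 genes of dense-core vesicle assembly and release 26 were tested and 0 were called, with a median log2 fold change of -0.01. At an unadjusted p under 0.05 there were 6, against 9.52% of all genes. DESeq2 called 1, against 1.79% of all genes, and limma-voom 0. Scg3, for the granin-binding secretogranin III, had the smallest p, at 800 ± 40.0 CPM in iKO and 977 ± 109 CPM in control ganglia (log2 fold change -0.29 ± 0.08, adjusted p = 0.144). Of 13 receptor genes for the members' peptides 7 passed the filter and 0 were called by any of the 3 tools or at an unadjusted p under 0.05 (median 0.02). C1qbp, whose protein binds a Vgf peptide, had the smallest p among them (50.4 ± 2.89 CPM in iKO and 46.3 ± 2.77 CPM in control ganglia, adjusted p = 0.527). Of 19 genes of cAMP-responsive transcription 18 were tested and 0 were called (median 0.03). There were 2 at an unadjusted p under 0.05, against 9.52% of all genes. DESeq2 called 1, against 1.79% of all genes, and limma-voom 0. Creb3l1, for a membrane-bound CREB-like factor, had the smallest p, at 22.3 ± 6.88 CPM in iKO and 14.6 ± 1.48 CPM in control ganglia (log2 fold change 0.53, adjusted p = 0.141). Without iKO 1 its adjusted p was 0.0274 (0.42), where 2.21% of all genes passed.

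Of the 43 other neuropeptide precursors listed, 15 passed the filter, 3 rose and 0 fell, and the median log2 fold change was -0.03. Over all genes tested 0.946% passed, 0.537% higher and 0.409% lower. Calcb, for the beta form of CGRP, had 212 ± 10.5 CPM in iKO and 141 ± 20.4 CPM in control ganglia (log2 fold change 0.59, adjusted p = 0.00311). Sst, for somatostatin, had 11.5 ± 2.74 CPM in iKO and 6.99 ± 1.82 CPM in control ganglia (0.62, adjusted p = 0.011). Nts, for neurotensin, had 18.4 ± 3.16 CPM in iKO and 12.5 ± 1.78 CPM in control ganglia (0.59, adjusted p = 0.0238). The Nts call was lost without iKO 4 (adjusted p = 0.0709), iKO 6 (0.0908), control 2 (0.0911) or control 3 (0.0553), and with the Schwann cell score as a term (0.0833). The 10 peptidergic nociceptor markers, of which Calcb is 1, held 2 higher and 1 lower gene and summed to 1870 to 2160 CPM in iKO and 1980 to 2300 CPM in control libraries.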

How the data were processed

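The authors deposited raw counts per gene for each of the 12 libraries, with no normalization. The TruSeq kit used was non-stranded, per the labels' protocols. The submitters' processing notes name the GRCm39 build, featureCounts 2.0.1, STAR 2.7.8a and bcl2fastq 2.20.0.422. Which annotation release and which counting options were used was not given in the sources used here. Symbols came from GENCODE M21 by gene identifier, which named 52083 of 55416 (94%).

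Counts were scaled by TMM and filtered with filterByExpr (16384 genes kept). They were tested with edgeR 4.0.16's quasi-likelihood test (R 4.3.3, robust, sex as a term, 9 residual degrees of freedom), with Benjamini-Hochberg adjustment over all genes and a threshold of 0.05. The procedure was tested on simulated counts with 200 genes changed. In the comparisons of iKO with all, tamoxifen-injected and corn-oil controls, 81%, 86% and 68% of 2-fold changes were recovered. For sex and the interaction the shares were 92% and 55%. Of smaller changes 70%, 48%, 32%, 82% and 17% were recovered, in the same order. False calls made up 2.58%, 6.94%, 6.54%, 3.33% and 8.86% of the calls. The 3-group and interaction fits used all 12 libraries. Log2 CPM had a prior count of 2, and correlations were tested with 100000 permutations, 2-sided (scipy 1.17.1). DESeq2 1.42.0, limma-voom (limma 3.58.1), other scalings, filters, terms and sample sets were alternatives.

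The biological coefficient of variation between libraries was 12.8%. Counting error per library was at most 3.3% for 9 members and 3.58% to 7.67% for Cartpt, the member with the fewest counts. P-values measure only the spread between these samples, which the labels do not tie to separate animals. All 10 members were named. From each list of related genes the text names up to 3 called genes with the smallest p, or, with none called, the gene of smallest p; others are said to be chosen after their values were seen. Members and lists were chosen with earlier results of these data known. Lists are described by counts and medians.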

Additional observations from a re-analysis of the deposited data

Results flagged for a closer look

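Of 22 groups of 6 libraries examined, for the 10 members and Prdm12 in iKO and in control, 3 held a library whose gap to its nearest neighbour, over the group's range, was above Dixon's 95% critical value. Chance flags about 1 in 20 such groups. For Pcsk2, iKO 1 had 185 CPM, against 256 to 271 CPM in the other 5 iKO libraries. For Scg2, control 6 had 351 CPM, against 429 to 462 CPM in the other 5 controls. For Prdm12, iKO 1 had 18.6 CPM, against 22.9 to 25.4 CPM in the other 5 iKO libraries.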

How the results depend on the processing

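Cartpt was higher in iKO in each of the 27 alternatives, and its call held in 15 of them, among them DESeq2 (adjusted p = 3.3e-05), limma-voom (0.0244), RLE scaling (0.0364) and total counts (0.0442). The count of members called in iKO against control, 1 over all libraries, was 0 with no filter on low counts (Cartpt adjusted p = 0.118), with the Schwann cell score as a term (0.0634), in libraries numbered 1 to 4 alone (0.138) and without the corn-oil controls (0.0736). It was 3 without iKO 1 and control 6 (2.09% of all genes), and 0 to 2 leaving out each library. Against tamoxifen-injected controls, where 0 were called, it was 2 with DESeq2 (3.58% of all genes), with no filter (2.58%), with the sensory neuron score as a term (6.9%) and without iKO 1 and control 6 (9.84%), 1 with total counts (1.78%), and 0 to 2 leaving out each library, against 1.35% of all genes as reported. Against corn-oil controls it was 1 with DESeq2 (0.427%) and 2 with no filter (0.973%), against 0.146% of all genes as reported. Without the filter the calls over all genes against corn-oil controls were 349, 108 higher and 241 lower, against 24, 19 higher and 5 lower, and those of the interaction 270 against 0. The adjusted p of Cartpt without the filter was 5.49e-17 for the comparison with tamoxifen-injected controls and 9.15e-21 for that with corn-oil controls, so member calls without the filter in these fits are uncertain. The causes were not tested.

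Genes called in the 5 related lists, 3 over all libraries, numbered 8 with DESeq2, 6 with the sensory neuron score and without iKO 1 and control 6, 5 without the corn-oil controls, and 1 in either run of sample numbers alone, with 2 to 6 leaving out each library. With DESeq2 these included Pam (adjusted p = 0.00155), Pcsk1n (0.0294), Scg3 (0.0178) and Creb3l1 (0.027); without the corn-oil controls Pcsk1n (0.0234) and Scg3 (0.0223) passed and Nts did not (0.0676), and Sst did not with no sex term (0.0943). In the 2 runs alone neither Sst (0.287 and 0.0787) nor Nts (0.145 and 0.36) passed. Correlated pairs, 1 over all libraries, numbered 6 with values centred within group and 0 to 3 leaving out each library. Over all genes, 294 were called with DESeq2, 253 with no filter, 265 with the sensory neuron score, 235 without the corn-oil controls, 35 and 82 in the 2 runs alone, and 92 to 364 leaving out each library.

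Same-numbered iKO and control libraries deviated from their group means with correlations of -0.15 to 0.22, not all above 0.1, so the numbers were not taken as pairs; 3 of 6 correlated best with their own number. With a replicate block 79 genes and 1 member were called (Cartpt log2 fold change 1.16, adjusted p = 0.0011), and the Sst call was lost (adjusted p = 0.102).

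Signs changed only for members with estimates near 0. Tac1 was -0.023 without the corn-oil controls. Adcyap1 was 0.002 with DESeq2 and RLE scaling, 0.001 with limma-voom, 0.015 with no filter, 0.041 with number run as a term, 0.039 with the block, 0.232 with the Schwann score, 0.005 and 0.135 in the 2 runs alone, and -0.091 to 0.057 leaving out each library. Chga was -0.05 with the block, -0.049 in libraries numbered 5 and 6 alone, -0.054 with the neuron score, and -0.011 to 0.086 leaving out each. Chgb was -0.004 with number run as a term, -0.02 with the block, -0.021 in libraries numbered 1 to 4, -0.078 with the neuron score, and -0.026 to 0.098 leaving out each (0.113 without iKO 1 and control 6). Pcsk1 was 0.003 with the Schwann score, 0.033 without iKO 1 and control 6, and -0.144 to 0.043 leaving out each. Nmb was -0.004 to 0.032 leaving out each.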
